A study of Mus musculus with 8 samples.

Results

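Keratins 5, 14 and 15 of the basal layer and keratins 1, 10, 2 and 77 of the layers above it were followed through 8 mouse skin RNA-seq libraries. These 7 genes were chosen by name (Krt5, Krt14, Krt15, Krt1, Krt10, Krt2 and Krt77) among the 23432 genes with a count in the deposited tables, and all 7 were present. The study asked what loss of the histone acetyltransferase MOF, and of Kansl1, a subunit of the NSL complex that MOF works in, does to developing skin. For MOF, epithelial cells were sorted from back skin at E16.5 (an embryonic stage, in days after conception) from 2 control and 2 MOFfl/fl/K14Cre (MOF cKO) samples. For Kansl1, whole epidermis was taken at P0.5 (newborn, in days after birth) from 2 control and 2 Kansl1fl/fl/K14Cre (Kansl1 cKO) samples. All mice were of mixed C57Bl/6J and CD-1 background, and both sexes were used. Controls in the study were wild-type or heterozygous littermates. Which of these each control library held, and whether a library came from 1 animal, are not given in the sources used here, so the p-values measure the spread between these libraries.

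The Krt14 promoter bears on every group. It drives the Cre recombinase that deletes either gene, and at E16.5 it also drives the nuclear H2BGFP reporter by which the cells of all 4 samples were sorted. Cells of the E16.5 libraries were therefore gated on the promoter of one of the 7 keratins, whereas the P0.5 libraries hold RNA from the whole Dispase-separated sheet. All 10 genes of a keratinocyte list, such as Trp63 and Epcam, were detected in each of the 8 libraries. Counts on genes ranged from 22484018 to 27561688 at E16.5 and from 9108709 to 19774643 at P0.5. The 7 keratins took between 3.26% and 4.19% of these counts at E16.5 and between 5.70% and 7.83% at P0.5. Because the RNA is from many cells together, fewer cells of a layer and less RNA per cell cannot be told apart.

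Keratins are filament proteins that assemble as pairs of one type I and one type II chain. Basal cells, which divide on the basement membrane, build their filaments from KRT5 and KRT14, with KRT15 as a further type I chain of basal cells. When a cell leaves the basal layer it switches to KRT1 and KRT10, the pair of the spinous layer and the classical mark of entry into differentiation. KRT2 joins later, in the upper spinous and granular layers, and KRT77 is a further type II keratin related to KRT1.

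In the mm10 build, the type I genes Krt10 (99385254 to 99389364), Krt15 (100131758 to 100135928) and Krt14 (100203162 to 100207548) lie on the minus strand of chromosome 11. The type II genes Krt5 (101707070 to 101712898), Krt2 (101810689 to 101818169), Krt1 (101845426 to 101850794) and Krt77 (101858731 to 101869705) lie on the minus strand of chromosome 15. Each type I gene has 8 exons and each type II gene 9 in its longest coding transcript. The annotation also places Gm44323 on the opposite strand over Krt5 and Gm11940 over Krt10. The strand setting of the counting is not given in the sources used here.

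The 100 bases before the start of 1 basal and 2 suprabasal genes are shown, because the levels of these genes moved in opposite directions between the stages. They are RefSeq sequences on build GRCm38.p6, written along the gene, for Krt5 at chr15:101712906-101713005, Krt10 at chr11:99389365-99389464 and Krt77 at chr15:101869706-101869805, all on the minus strand. Capitals mark the letters TATAAA.
Krt5: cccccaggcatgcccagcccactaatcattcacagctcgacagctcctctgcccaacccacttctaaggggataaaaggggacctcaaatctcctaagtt
Krt10: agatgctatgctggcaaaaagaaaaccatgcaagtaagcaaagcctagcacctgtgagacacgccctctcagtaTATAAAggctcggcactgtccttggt
Krt77: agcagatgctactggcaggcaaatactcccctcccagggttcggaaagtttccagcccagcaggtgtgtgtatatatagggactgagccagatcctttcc

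Windows of 250 bases before to 50 bases after the start were searched on both strands for Krt5, Krt10, Krt2 and Krt77. The exact letters TATAAA, a form of the TATA box, were found in the Krt10 window alone, 26 bases before the start. They were found in 13.6% of the 32851 windows of the table. Close variants, such as tatatata in the Krt77 sequence shown, were not searched, so no window is shown to lack a TATA box. CACCC, read by KLF factors, was found in the windows of Krt5, Krt10 and Krt2 and in 57.5% of all windows. TGANTCA (AP-1), GCCNNNGGC (AP-2) and GGGCGG (Sp1) were found in none of these 4 windows, and in 7.81%, 16.6% and 35.7% of all windows. No matches overlapped.

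At E16.5 the basal keratins were the most abundant of the 7 per length. In control cells, Krt5 stood at 8200 ± 20.4 CPM (CPM being the gene's count relative to the scaled library size) per kilobase of transcript (SD, n = 2), Krt14 at 5355 ± 107, Krt15 at 2029 ± 309, Krt10 at 894 ± 133 and Krt1 at 526 ± 75.4. In this order no neighbouring genes overlapped between libraries. Krt77, at 4.80 ± 0.172, and Krt2, at 0.161 ± 0.0646, were far below the others. At P0.5 the order turned over. In control epidermis, Krt10 stood at 12041 ± 4535 and Krt1 at 11659 ± 5282 CPM per kilobase, with overlapping libraries, above Krt5 at 4306 ± 317, Krt14 at 3579 ± 376 and Krt15 at 1573 ± 234. Krt77 (9.74 ± 2.46) and Krt2 (0.160 ± 0.0383) again came last.

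**Figure D1:**
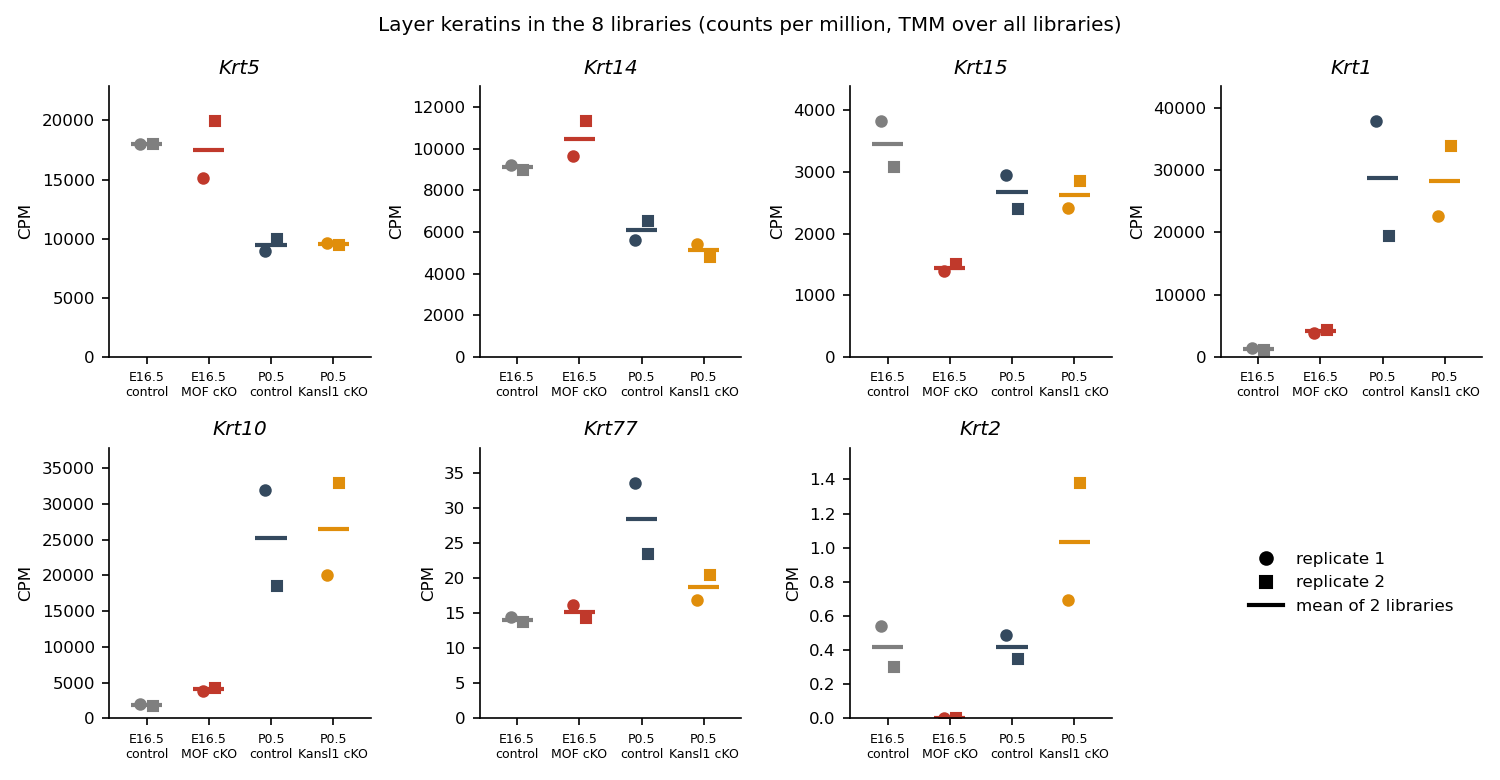
Level of each keratin in CPM, scaled over all 8 libraries, with 1 point per library and a bar at the mean of each group of 2. Krt1 and Krt10 are far higher at P0.5 than at E16.5, Krt15 is lowest in the MOF cKO libraries, and Krt2 has 0 counts in both of these.

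In MOF cKO cells at E16.5, the suprabasal pair Krt1 and Krt10 was higher and the basal keratin Krt15 was lower than in control, whereas the main basal pair, Krt5 and Krt14, did not pass the test. The test was edgeR's quasi-likelihood test with Benjamini-Hochberg adjustment. A gene counted as called where its adjusted p was at most 0.01 and its fold exceeded 1.5. Of the 7 keratins, 6 passed the filter on low counts, 2 of these were called higher and 1 lower. Over all 13956 genes tested, 10% were called higher and 9.59% lower. CPM in this comparison was scaled over the 4 libraries of the experiment with edgeR's TMM factors.

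Krt1 had 1549 and 1255 CPM in control and 4227 and 4691 CPM in MOF cKO. Both MOF cKO libraries lay above both controls, and the log2 fold change was 1.67 ± 0.131 (standard error), with an adjusted p of 0.000394. Krt10, the partner of Krt1, had 2253 and 1813 CPM in control and 4177 and 4660 CPM in MOF cKO. The groups were again apart, by 1.12 ± 0.132 (standard error) on the log2 scale, with an adjusted p of 0.00105. In 1 fit over all 8 libraries the Krt10 value was the same but its adjusted p was 0.0138, and the call was lost. Both genes remained far below their P0.5 levels in every MOF cKO library. By single-cell RNA-seq at E16.5, the study reported Krt1 and Krt10 as lower in suprabasal cells of MOF cKO. It also saw thinner spinous and granular layers. Those values are for suprabasal cells alone, whereas the libraries here pool the sorted epithelial cells. What sets the results apart was not tested.

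Krt15, the basal keratin that is also known from hair follicle stem cells, had 4160 and 3327 CPM in control and 1507 and 1626 CPM in MOF cKO. Both MOF cKO libraries lay below both controls, with a log2 fold change that was -1.26 ± 0.130 (standard error) and an adjusted p of 0.000745. Per length, Krt15 ranked above Krt10 and Krt1 in both control libraries and below them in both MOF cKO libraries.

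Krt5 had 19647 and 19442 CPM in control and 16381 and 21611 CPM in MOF cKO. The MOF cKO libraries lay on either side of the controls, and the log2 fold change was -0.041, with a 95% interval from -0.36 to 0.28. Krt14, whose promoter set the gate, had 10038 and 9690 CPM in control and 10437 and 12266 CPM in MOF cKO. Its log2 fold change of 0.20 (95% interval from -0.055 to 0.46, adjusted p = 0.183) was -0.10 when libraries were scaled by their size alone, a scaling that shifted the median over the whole table from -0.02 to -0.32 and the calls to 769 higher and 2743 lower genes. The calls of Krt1, Krt10 and Krt15 and their directions held under that scaling.

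Krt77 had 15.7 and 14.8 CPM in control and 17.4 and 15.5 CPM in MOF cKO, overlapping values at a log2 fold change of 0.11 (95% interval from -0.30 to 0.51). It did not pass the test although its neighbour Krt1 did. Krt2 had 18 and 9 counts in control and 0 counts in both MOF cKO libraries. The control mean of Krt2 stood 3.28-fold above a floor of 3 counts per MOF cKO library. That floor covers counting error in MOF cKO only. The error of the 2 control counts is left out, so 3.28 is not a lower bound. Krt2 had too few counts to pass the filter, and with every counted gene kept its adjusted p was 0.0478 (edgeR).

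Ratios of keratins within a library do not depend on scaling. The summed counts of the 4 suprabasal keratins over those of the 3 basal keratins gave 0.113 and 0.0950 in the E16.5 controls, against 0.297 and 0.264 for MOF cKO. The ratio was thus 2.71-fold higher in MOF cKO, and still below 1. Within the suprabasal pair, Krt1 over Krt10 per length was 0.586 and 0.591 in the control libraries. In MOF cKO it was 0.863 and 0.859, a gap that was wide beside the spread of replicates. Within the type I chains of the basal layer, Krt15 over Krt14 per length was 0.414 and 0.343 in the controls, against 0.144 and 0.132 for MOF cKO. Krt5 over Krt14 per length was 1.51 and 1.55 in the controls, against 1.21 and 1.36 for MOF cKO. All 4 ratios separated the genotypes without overlap. The share of all genes whose E16.5 libraries separate in this way was not computed. Ratios that hold Krt1, Krt10 or Krt15 reuse the counts of called genes and are not separate from those calls. No test was made of a ratio, since an exact permutation test of 2 against 2 libraries cannot go below p = 0.333.

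**Figure D2:**
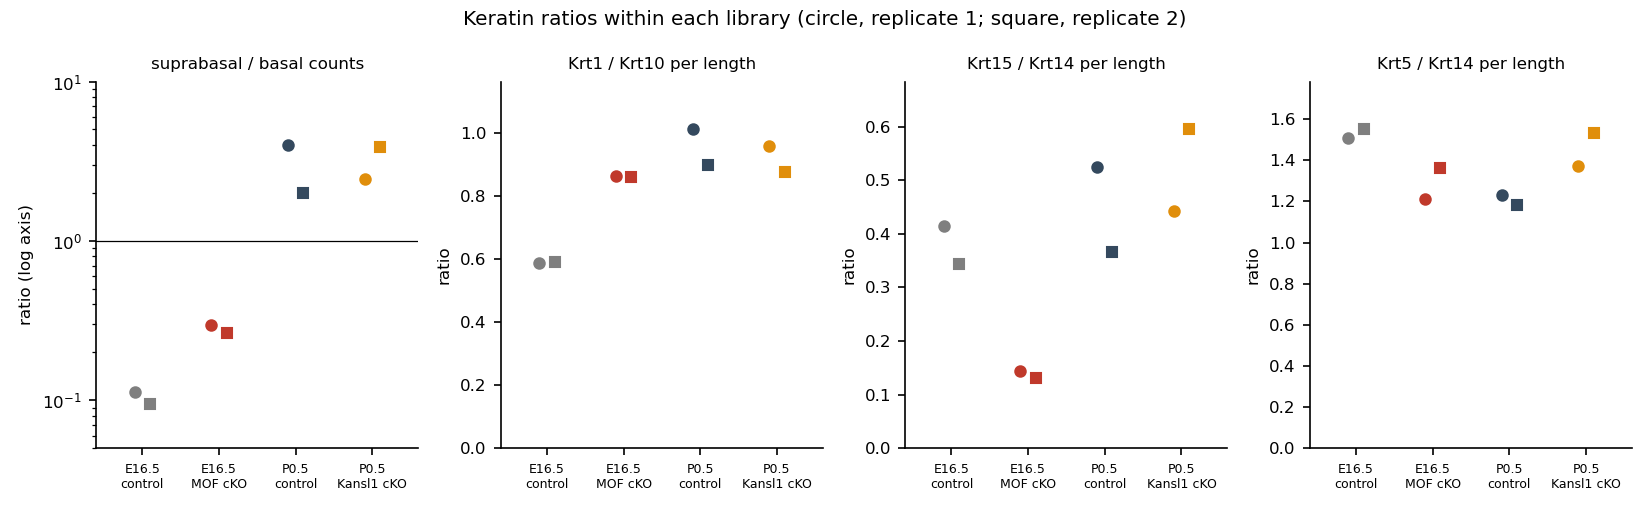
Ratios of keratin counts within each of the 8 libraries, by group, with suprabasal over basal counts on a log axis and the other 3 ratios per length on axes that start at 0. In E16.5 libraries every ratio separates MOF cKO from control, and at P0.5 the suprabasal to basal ratio overlaps between Kansl1 cKO and control.

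The make-up of the keratin transcripts differed likewise. Of the counts per length of the 7 genes together, Krt1 and Krt10 held 3.32% and 5.66% in control replicate 1 and 2.86% and 4.84% in control replicate 2. They held 9.45% and 11.0% in MOF cKO replicate 1 and 8.62% and 10% in replicate 2. Krt15 held 12.9% and 10.9% in the controls, against 4.87% and 4.32% for MOF cKO. Type II over type I chains, summed over the 7 genes per length, stayed between 0.885 and 1.13 in all 8 libraries and overlapped between the genotypes of each experiment.

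**Figure D3:**
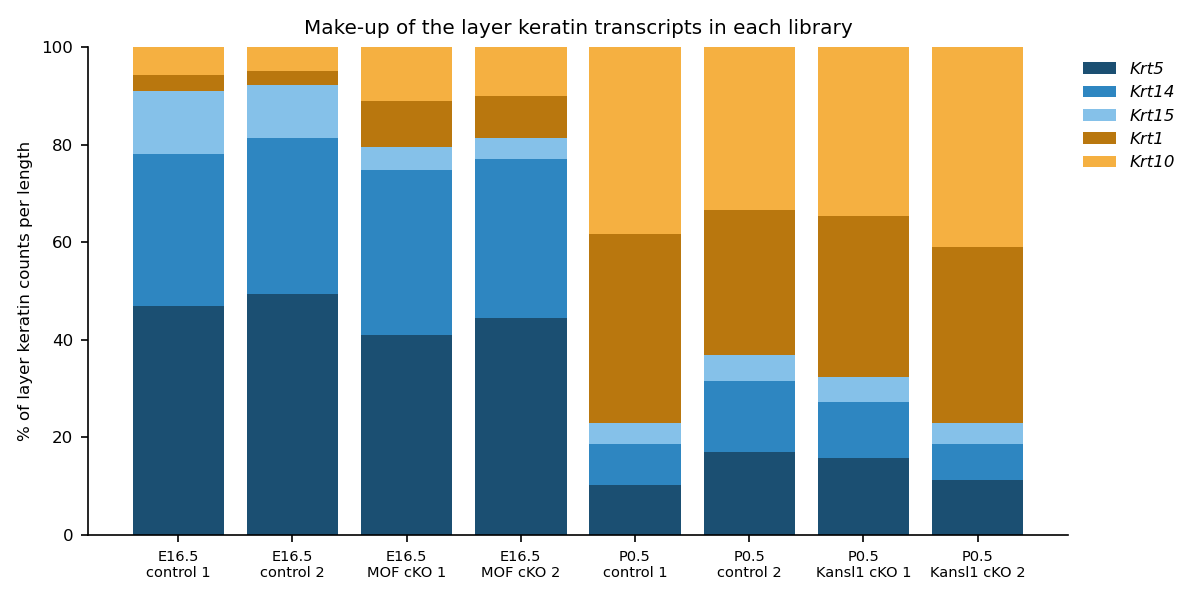
Share of each keratin in the counts per length of the 7 genes, in percent, for each of the 8 libraries. Krt77 and Krt2, together under 0.04%, are too small to be drawn. Basal keratins (blue) hold most of each E16.5 bar and Krt1 and Krt10 (orange) most of each P0.5 bar.

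Other genes of the layers were read from lists in the same comparison, leaving out the 7 keratins. The lists share some genes, so their counts are not independent. Called genes that stand in more than a single list are Perp, Jup, Plec, Dsc1 and Grhl1. Of 16 tested genes of the spinous layer, 11 were called higher in MOF cKO and 0 lower. Their median log2 fold change was 1.19, against -0.02 for all genes. Over all genes tested, 10% were called higher and 9.59% lower. The largest rise was in Serpinb3a, a protease inhibitor, from 0.340 ± 0.0725 to 43.2 ± 11.8 CPM (SD, n = 2). It is from a multigene family, and reads that align to several of its close copies are left out of the counts. Of 19 tested genes of the granular layer and cornified envelope, 9 were called higher and 0 lower, with a median of 1.76. Sprr1b, a precursor protein of the cornified envelope, rose most, from 1.43 ± 0.600 to 65.7 ± 19.3 CPM (SD, n = 2). The granular genes stayed low in sum, at 454 to 512 CPM in MOF cKO and 179 to 190 CPM in control, where P0.5 libraries held between 17702 and 40341 CPM on the scale of all 8 libraries. By single-cell RNA-seq at E16.5, the study reported cornified envelope genes as lower in suprabasal cells of MOF cKO. It also saw weaker Loricrin staining. Those results are for suprabasal cells and for protein in sections, whereas the libraries here pool sorted epithelial cells. What sets the results apart was not tested.

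Among 18 genes of the basal layer and its adhesion to the basement membrane, 3 were called higher and 1 lower, with a median of 0.15. The shares over all genes tested were 10% higher and 9.59% lower. Plec, which encodes the plectin that ties keratin filaments to hemidesmosomes, rose by 0.92 on the log2 scale (standard error 0.187, adjusted p = 0.00791). Lgr6, a receptor of epidermal stem cells, fell by 0.59 on the log2 scale (standard error 0.120), with the same adjusted p. Of 17 desmosome and hemidesmosome genes that anchor keratin filaments, 7 were called higher and 0 lower. Pkp2, a desmosomal plaque protein, rose most, from 1.02 ± 0.146 to 6.42 ± 0.153 CPM (SD, n = 2). Among 10 keratinocyte genes, 4 were called higher and 0 lower. The largest rise was in Sfn, the 14-3-3 sigma protein of epithelia, from 654 ± 1.19 to 1537 ± 175 CPM (SD, n = 2).

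A list of 25 regulators known to act on keratin genes of the epidermis held transcription factors and the receptor Notch1. Of these 25, 7 were called higher, Notch1 among them, and 0 lower, with a median of 0.18. The shares over all genes tested were 10% higher and 9.59% lower. Zfp750, a factor of terminal differentiation, rose most, from 30.3 ± 0.830 to 75.5 ± 5.68 CPM (SD, n = 2). Trp63, the master factor of the lineage, was picked out after its values were seen. Its level was 670 ± 53.6 CPM in control, against 451 ± 47.0 CPM for MOF cKO (SD, n = 2), and despite an adjusted p of 0.00870 its fold was under 1.5, so it was not called.

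Among 40 other keratins, 26 were tested, 3 were called higher and 2 lower. The 26 had a median log2 fold change of 0.0031. The shares over all genes tested were 10% higher and 9.59% lower. Krt6b, a keratin of stressed epidermis, had 31 and 20 counts in control and 4075 and 9041 counts in MOF cKO. Reads that align to both Krt6b and its close paralog Krt6a are left out of these counts. Krt8, a keratin of simple epithelia, had 790 and 693 counts in control and 68 and 134 counts in MOF cKO. The remaining called genes, named after their values were seen, were Krt6a, Krt16 and Krt79, with log2 fold changes of 6.52, 5.47 and -1.72.

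**Figure D4:**
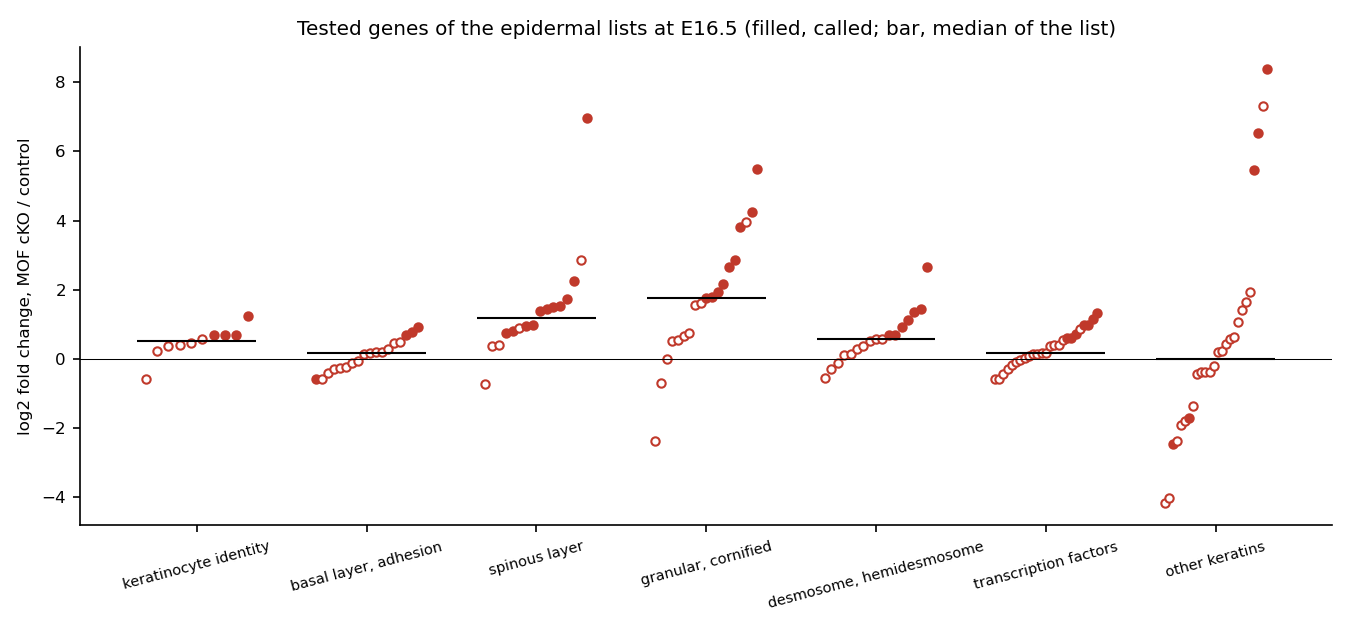
Log2 fold change of MOF cKO over control at E16.5 for each tested gene of 7 lists, without the 7 layer keratins. Filled points were called, and bars mark the median of each list, which is 1.19 for the spinous list and 0.15 for the basal list.

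Markers of macrophages were higher in MOF cKO as well. Marker sums are on the scale of all 8 libraries. Of 11 macrophage markers, 7 were called higher and 0 lower. Their summed level was 18.6 to 42.1 CPM in control and 95.3 to 126 CPM in MOF cKO. The 11 markers were detected in every E16.5 library, except Tyrobp, at 0 in control replicate 2. Fibroblast markers summed to 843 to 1440 CPM in control and 1428 to 1989 CPM in MOF cKO, with 0 of 8 called and none at 0. Melanocyte markers summed to 18.1 to 47.4 CPM in control and 20.6 to 71.6 CPM in MOF cKO (0 of 7 called). Endothelial markers summed to 5.66 to 6.68 CPM and 9.96 to 20.6 CPM (1 of 5 called higher). Muscle markers summed to 0.899 to 1.27 CPM and 1.76 to 13.3 CPM (0 of 3 tested called). Merkel cell markers stood at 14.0 to 18.2 CPM and 7.26 to 8.66 CPM (0 of 4 called), and erythroid markers stood at 35.4 to 61.0 CPM and 74.5 to 90.8 CPM (0 of 2 tested called). The part of these cells in the keratin values was not tested. The deleted gene, listed as Kat8, had 443 and 408 counts in control and 248 and 329 counts in MOF cKO, which after scaling is -0.14 on the log2 scale (adjusted p = 0.554). Counts of a whole gene do not show which exons were lost.

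In Kansl1 cKO epidermis at P0.5, none of the 7 keratins passed the test, and no genes were called among the 13031 tested, which is 0% (edgeR). At an unadjusted p under 0.05, 2045 genes differed, and DESeq2 called 55 lower and 35 higher genes, no layer keratin among them. Of the 7 keratins, 6 passed the filter on low counts. The libraries of Krt14 and Krt77 were lower in Kansl1 cKO without overlap, which was also so for 22.7% of all genes, and 26.0% were higher without overlap.

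Krt1 had 35393 and 18084 CPM in control and 20488 and 31016 CPM in Kansl1 cKO. Krt10 had 29902 and 17195 CPM in control and 18269 and 30198 CPM in Kansl1 cKO. For both genes 1 library of each genotype was high and the other low, and the Kansl1 cKO values lay inside the range of the controls for Krt1. The log2 fold changes were -0.054 for Krt1 (95% interval from -0.86 to 0.75) and 0.041 for Krt10 (from -0.73 to 0.81), and both intervals held changes of either sign.

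Krt5 was more even, with 8398 and 9251 CPM in control and 8751 and 8682 CPM in Kansl1 cKO. Its log2 fold change was -0.018 (95% interval from -0.38 to 0.34). Krt15 had 2767 and 2223 CPM in control and 2193 and 2612 CPM in Kansl1 cKO, overlapping values at a log2 fold change of -0.055 (from -0.50 to 0.39). Krt14 had 5268 and 6069 CPM in control and 4939 and 4384 CPM in Kansl1 cKO. Its log2 fold change was -0.28 (from -0.68 to 0.11, adjusted p = 0.459).

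Of the 6 tested keratins, Krt77 had the widest gap, with 31.5 and 21.8 CPM in control and 15.4 and 18.7 CPM in Kansl1 cKO. The difference of -0.64 ± 0.235 (standard error) on the log2 scale had an unadjusted p of 0.0304 and an adjusted p of 0.278. Krt2 had 4 and 5 counts in control and 13 and 16 counts in Kansl1 cKO and was left out by the filter, although its libraries did not overlap. With every counted gene kept, its adjusted p was 0.523.

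The P0.5 libraries varied more among themselves in the balance of the layers than by genotype. The suprabasal to basal ratio was 3.98 and 2.01 in control and 2.44 and 3.91 in Kansl1 cKO, so that control replicate 1 and Kansl1 cKO replicate 2 were high and the other two were low. The granular list followed the same order of high and low, at 39293 and 23503 CPM in control and 17702 and 40341 CPM in Kansl1 cKO. Leaving out 1 library at a time moved the log2 difference of the ratio from 0.13 to between -0.36, without control replicate 2, and 0.62, without control replicate 1. Krt5 over Krt14 per length was 1.23 and 1.18 in control and 1.37 and 1.53 in Kansl1 cKO, without overlap.

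No list of layer genes had a call in Kansl1 cKO. Tested were 17 spinous, 21 granular, 18 basal, 16 desmosome, 10 keratinocyte, 25 regulator and 30 other keratin genes. Melanocyte markers summed to 506 and 572 CPM in control and 1130 and 1249 CPM in Kansl1 cKO, with 0 of 7 called, and muscle markers stood at 204 CPM in control replicate 1 and at 2.50 to 4.31 CPM in the other P0.5 libraries. Macrophage markers summed to 204 and 241 CPM in the controls, against 318 and 342 CPM for Kansl1 cKO (0 of 11 called). Fibroblast markers summed to 1881 and 1179 CPM in the controls, against 1020 and 810 CPM for Kansl1 cKO (0 of 8 called). Neither sum overlapped between the genotypes. Endothelial markers summed to 7.10 and 4.31 CPM in the controls, against 3.78 and 3.19 CPM for Kansl1 cKO (0 of 3 tested called), whereas Merkel cell and erythroid sums overlapped. Their part in the keratin values was not tested. Kansl1 itself had 355 and 745 counts in control and 649 and 387 counts in Kansl1 cKO (log2 fold change -0.52, standard error 0.167, adjusted p = 0.242).

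**Figure D5:**
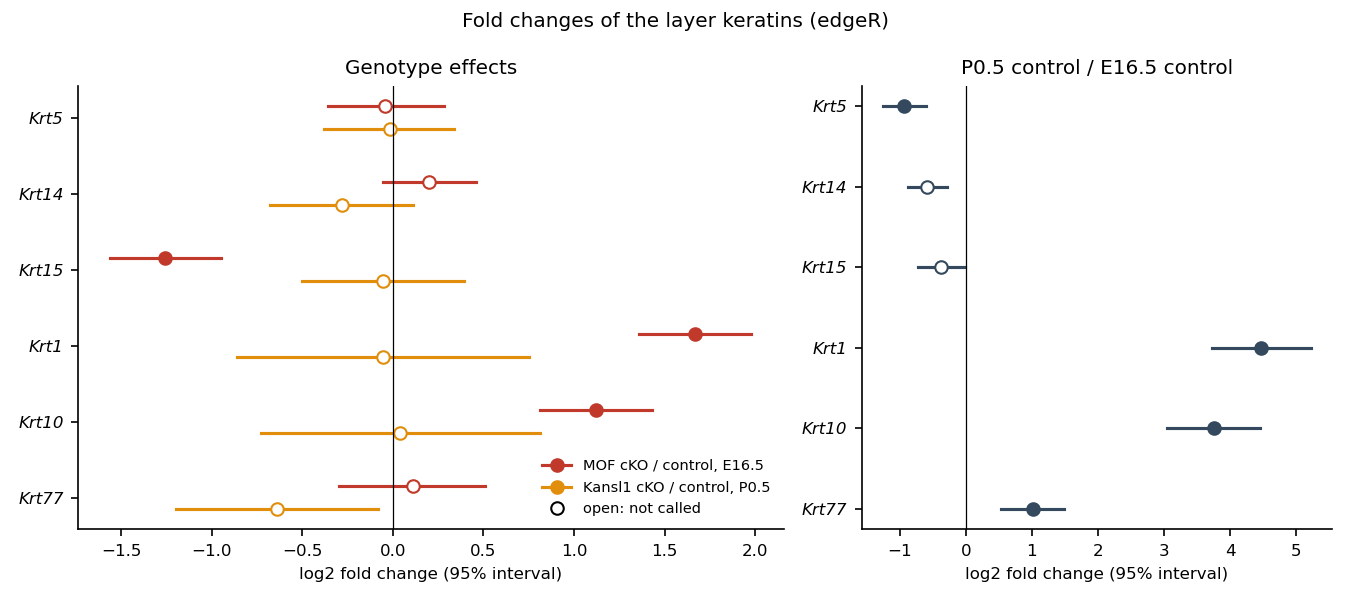
Log2 fold change with its 95% interval for the 6 keratins other than Krt2, for MOF cKO and Kansl1 cKO over their controls and for P0.5 over E16.5 control. Filled points were called. Krt1, Krt10 and Krt15 are called in MOF cKO and none in Kansl1 cKO, and the Kansl1 cKO intervals of Krt1 and Krt10 are the widest.

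Whether the effects of the 2 deletions differed was tested in 1 fit over all 8 libraries as the difference of their log2 fold changes. None of the 7 keratins passed, with 2.92% of 14565 genes called. The difference for Krt15 was -1.23 (standard error 0.227, adjusted p = 0.0114), that for Krt1 was 1.69 (standard error 0.410, adjusted p = 0.0286) and that for Krt10 was 1.05 (standard error 0.393, adjusted p = 0.107). Krt1 and Krt15 thus lay above the threshold of 0.01 and below 0.05. DESeq2 called both, with adjusted p values of 9.9e-05 and 0.000276. For Krt1 the adjusted p exceeded 0.05 in 7 of 11 alternatives, 6 of them without 1 library, and for Krt15 in 0 of 11. The deleted gene, the stage, the way of isolation and the sequencer differ between the 2 effects and cannot be told apart. Per the study, the MOF libraries ran on a HiSeq and the Kansl1 libraries on a NovaSeq.

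Between the controls of the 2 stages, Krt1 and Krt10 differed most among the 7 keratins. On the scale of all 8 libraries, Krt1 had 1423 and 1161 CPM at E16.5 and 37793 and 19454 CPM at P0.5. It was 22.2-fold higher at P0.5 (log2 fold change 4.47, standard error 0.333, adjusted p = 1e-05). Krt10 had 2069 and 1677 CPM at E16.5 and 31930 and 18498 CPM at P0.5 and was 13.5-fold higher (log2 fold change 3.75, standard error 0.309, adjusted p = 1.75e-05). Krt77 rose with them, from 14.4 and 13.7 CPM to 33.6 and 23.4 CPM (log2 fold change 1.01, standard error 0.214, adjusted p = 0.00316). The call of Krt77 was lost when either E16.5 control or control replicate 1 of P0.5 was left out, at adjusted p values of 0.0159 to 0.0235, and with scaling by library size alone. Among all 14565 genes tested, 19.6% were called higher and 20.6% lower at P0.5, and the median log2 fold change was -0.13.

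Krt5 had 18047 and 17984 CPM at E16.5 and 8967 and 9952 CPM at P0.5 and was called lower (log2 fold change -0.93, standard error 0.143, adjusted p = 0.00053). Krt14 had 9221 and 8964 CPM at E16.5 and 5625 and 6529 CPM at P0.5. Its groups did not overlap and its adjusted p was 0.00507, but its fold of 1.496 was just under the threshold of 1.5. It was called lower with library size alone (-0.92 on the log2 scale) and without control replicate 2 of P0.5 (-0.70). Krt15 had 3821 and 3078 CPM at E16.5 and 2955 and 2391 CPM at P0.5, and differed by -0.37 ± 0.160 (standard error) on the log2 scale, with an adjusted p of 0.0759. Library size alone put Krt15 at -0.72, called with an adjusted p of 0.00155, and leaving out 1 control put it between -0.53, without control replicate 1 of P0.5, and -0.19, without control replicate 1 of E16.5, uncalled. Krt2, at 18 and 9 counts at E16.5 and 4 and 5 counts at P0.5, was too low to order the stages. Of the layer lists, 15 of 17 spinous and 21 of 21 granular genes were called higher at P0.5 and 0 lower, whereas 0 of 18 basal genes were called higher and 6 lower. Markers of macrophages, melanocytes and muscle were higher at P0.5 as well, and 1 of 8 fibroblast markers was called higher. Of 11 macrophage markers 10 were called, with sums of 18.6 to 42.1 CPM at E16.5 and 204 to 241 CPM at P0.5. Of 7 melanocyte markers 7 were called, with sums of 18.1 to 47.4 CPM and 506 to 572 CPM. Of 5 muscle markers 3 were called, with sums of 0.899 and 1.27 CPM at E16.5, where 3 markers were at 0 in control replicate 1, and 204 and 4.31 CPM at P0.5. The part of these cells in the stage values was not tested. The suprabasal to basal ratio was 27.3-fold higher in P0.5 than in E16.5 control. Stage, isolation, litter and sequencer differ together between these groups and cannot be told apart.

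The genes whose pattern over the 8 libraries was most like that of each keratin were sought among 9079 genes with a mean of at least 10 CPM, by the Pearson correlation of log2 CPM. All 8 points share the split between E16.5 and P0.5, and no value was computed within a stage. Ube2b and Ypel5 were most like Krt10 (both 0.998), Rab11a and Slc5a1 most like Krt1 (both 0.997), Anks1 (0.995) and Cbx6 (0.994) most like Krt5, and Wdr91 (0.996) and Pip4k2c (0.994) most like Krt14. Rbm34 (0.991) and 0610012G03Rik (0.987) were most like Krt77. Krt15, whose low point was in MOF cKO rather than at one stage, had lower values, of 0.968 for both Pkig and Synrg. Efcab14 (0.978) and Casd1 (0.975) were most like Krt2, which rests on at most 18 counts in a library.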

How the data were processed

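The authors sequenced polyadenylated RNA as paired reads of directional libraries and aligned them to mm10, with HISAT2 per the methods of the study and with TopHat2 per the submitters' processing notes. They deposited raw counts of reads per gene from HTSeq, with no normalization. Entries that name no gene held 21.1% to 26.0% of the reads and were left out.

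The 7 keratins, the gene lists and the tests were chosen with earlier results of these data known. In edgeR 4.0.16 (R 4.3.3), low counts were removed by filterByExpr, TMM factors set the scale, and the quasi-likelihood test with Benjamini-Hochberg adjustment was run on each experiment alone. The stage contrast and the difference of effects came from 1 fit over all 8 libraries. DESeq2 1.42.0, other scalings, other filters, a replicate block and leaving out each library were alternatives. Scripts were tested on simulated data. Coordinates and transcript lengths came from GENCODE M21, in which 21775 of 23432 symbols were matched, and promoters from RefSeq. Named genes were the 7 keratins, the called gene of each list with the largest rise and the largest fall in MOF cKO (libraries apart, mean of at least 1 CPM), the 2 genes most like each keratin, and Kat8 and Kansl1. Spreads rest on 2 libraries per group, which limits precision more than depth does.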

Additional observations from a re-analysis of the deposited data

Results flagged for a closer look

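In the test of the difference between the effects of the 2 deletions, with edgeR over all 8 libraries, 3 of the 7 keratins had an adjusted p under 0.05, as had 13.8% of the 14565 genes tested. None of the 3 reached the threshold of 0.01. The adjusted p exceeded 0.05 in 0 of 11 alternatives for Krt15, in 7 for Krt1 and in 9 for Krt2, among them 6 and 8 of the 8 that left out 1 library. The difference of log2 fold changes, MOF cKO minus Kansl1 cKO, was -1.23 for Krt15 (95% interval from -1.74 to -0.72) and 1.69 for Krt1 (95% interval from 0.77 to 2.62). For Krt2 the fitted difference was -7.43 (adjusted p = 0.0282), a value that depends on the prior count because both MOF cKO libraries had 0 counts, so it bounds nothing. The counts behind it are 18 and 9 in E16.5 control, 4 and 5 in P0.5 control and 13 and 16 in Kansl1 cKO.

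The ratio of Krt5 to Krt14 per length moved in opposite directions. Both MOF cKO libraries lay below both E16.5 controls and both Kansl1 cKO libraries lay above both P0.5 controls, at log2 differences of -0.25 and 0.26, which are -0.52 apart. This difference was not tested. At P0.5, 26.0% of all genes were higher and 22.7% lower in Kansl1 cKO without overlap. Those shares are for single genes. The share at E16.5 and the shares for ratios were not computed, so how common such a pattern is cannot be said. Neither Krt5 nor Krt14 was called in MOF cKO or in Kansl1 cKO.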

How the results depend on the processing

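In MOF cKO, Krt1, Krt15 and Krt10 were called under each of 14 alternatives, except Krt10 in 1 fit over all libraries (1.12, adjusted p = 0.0138), and the cause was not tested. Lower genes moved from 1338 to 2743 with library size alone, 2197 with every counted gene, 2263 with the replicate block and 2296 at an adjusted p of 0.05, and higher genes from 1395 to 769 with library size alone. Library size alone turned Krt14 (-0.10) and Krt77 (-0.20), since it shifts all genes, and leaving out 1 library gave -0.26 to 0.14 for Krt5.

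In Kansl1 cKO, lower and higher genes were 55 and 35 with DESeq2 and 117 and 73 with every counted gene, 1 gene was lower with library size alone, and leaving out 1 library gave 4 to 197 lower and 0 to 76 higher. No alternative called a layer keratin. Leaving out 1 library gave -0.085 to 0.022 for Krt5, -0.24 to 0.11 for Krt15, -0.49 to 0.51 for Krt1, -0.36 to 0.50 for Krt10 and -0.36 to 0.62 for the log2 difference of the suprabasal to basal ratio. Krt5 was 0.014 in 1 fit over all libraries, and Krt10 was -0.0091 with library size alone and -0.014 with upper-quartile factors.

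Between the stages, leaving out 1 control gave 1543 to 2514 lower genes and 0.74 to 1.25 for Krt77, which library size alone put at 0.66, uncalled. Library size alone called Krt14 (-0.92) and Krt15 (-0.72), and Krt14 was also called without P0.5 control replicate 2 (-0.70). Without 1 control, Krt14 was -0.70 to -0.48 and Krt15 -0.53 to -0.19. Krt2 was 0.10 with DESeq2 and -0.29 to 0.45 without 1 control. For the difference of effects, DESeq2 called 492 lower and 940 higher genes, 2 of them layer keratins, the replicate block called 0 and 1, and leaving out 1 library gave 12 to 135 lower genes, 61 to 288 higher genes and 0 to 1 layer keratin (Krt1, without P0.5 control replicate 2). Library size alone called 1 keratin, Krt15. Krt5 was 0.04 with DESeq2 and -0.14 to 0.13 without 1 library.

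The study used littermate controls and sequenced samples in pairs, but the labels do not tie replicate numbers to litters, so the numbers were not taken as pairs. Same-numbered deviations correlated at 0.21 at E16.5 and -0.20 at P0.5, over 2 pairs each. The block called no layer keratin that was uncalled without it, though it took Krt14 in MOF cKO from an adjusted p of 0.183 to 0.00248 (edgeR), with the log2 fold change still 0.20 and the fold under 1.5. A crossed pairing at P0.5, chosen after seeing the data, called 1 lower and 0 higher genes. A group left with 1 library is assumed to vary like the others.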

Other observations

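Keratins outside the 7 also differed between the controls of the 2 stages. Of 40 listed, 35 were tested, 17 were called higher at P0.5 and 3 lower. The tested ones had a median log2 fold change of 2.43, against -0.13 for all genes. Over all genes tested, 19.6% were called higher and 20.6% lower. Krt78, Krt23 and Krt80 are named here after their values were seen. Krt78 went from 1.10 to 325 CPM, Krt23 from 0.569 to 288 CPM and Krt80 from 18.5 to 138 CPM, in the mean of 2 libraries, and none of them overlapped between the stages. The 3 called lower were Krt17, Krt8 and Krt18, with log2 fold changes of -0.87, -1.96 and -2.34. Krt17 is known from hair follicles and stressed epidermis, and Krt8 and Krt18 form the pair of simple epithelia.

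Of the 25 listed regulators of keratin genes, 6 were called higher and 8 lower at P0.5 than at E16.5 in control. The shares over all genes tested were 19.6% higher and 20.6% lower. Fos, Jun and Junb, immediate early factors named after their values were seen, were among the 8 lower regulators. Their log2 fold changes were -3.64, -2.97 and -2.59. The E16.5 cells were dissociated and sorted and the P0.5 sheets were lysed directly, and the part of isolation was not tested.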
